A study of Mus with 2 samples.

Results

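The Myc, Max and Mxd family is a set of transcription factors that share MAX as a dimerization partner. Its 9 members here were the genes with the symbols Myc, Mycn, Max, Mxd1, Mxd3, Mxd4, Mxi1, Mnt and Mga, and all 9 were found among the 27998 genes counted in each library. They were read in every kind of cell of both libraries. MYC and N-MYC bind DNA as dimers with MAX and drive genes of growth, ribosome production and the cell cycle. MXD1, MXD3, MXD4, MXI1 and MNT compete for MAX and bring the SIN3 corepressors to the same sites, and MGA joins MAX to a variant Polycomb complex. In hematopoietic stem cells (HSCs), c-Myc and N-Myc are known for their joint part in survival and in the balance between self-renewal and differentiation.

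HSCs of 2 genotypes were profiled cell by cell for RNA on the 10x Genomics Chromium, which counts each captured RNA molecule once by a unique molecular identifier (UMI). Both genotypes carried Mx1-Cre, a recombinase that pIpC switches on in blood cells and in other tissues, and they are called Id2+/+ (Mx1-Cre ID2+/+) and Id2Δ/Δ (Mx1-Cre ID2Δ/Δ, with the floxed Id2 gene deleted). Cells were purified after pIpC treatment from 5 pooled mice per genotype, aged 8 to 12 weeks, as lineage-negative Sca-1+ c-Kit+ FLT3- CD150+ CD48- cells. The experiment addressed which molecular changes accompany the lost quiescence of HSCs without Id2, an inhibitor of helix-loop-helix transcription factors. Each genotype had 1 library, so no difference between genotypes has a replicate check, no p-value is given, and every interval is a 95% interval for counting error only. One clause of the label text of the Id2Δ/Δ sample names Id2+/+ bones, whereas its title and genotype field give the deletion and set the group.

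The libraries held 8612217 UMIs (Id2+/+) and 17140713 UMIs (Id2Δ/Δ). Cells with markers of other types had passed the same sort and were removed. That left 262 Id2+/+ cells with a median of 7081 UMIs and 416 Id2Δ/Δ cells with a median of 9663 UMIs, called retained cells. All 12 HSC markers had UMIs in both sets, with a summed level of 1034 and 792 UMIs per 1000000 (CPM). The 11 neutrophil markers summed to 1079 and 641 CPM and the 15 erythroid markers to 1499 and 1004 CPM in the same cells. Droplets without a cell held 46.3% and 22.4% of the UMIs, and free RNA was put at 10.5% and 5.41% of the retained cells' UMIs. Called cells of the libraries shared 1 barcode. Id2 had 22 UMIs (10.3 CPM) in the retained Id2+/+ cells and none in the Id2Δ/Δ cells, where 3 counts would be 0.640 CPM. The floxed allele keeps the last exon, so a 3′ tag there does not by itself test the deletion.

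On mouse genome build mm10 (GRCm38), which the submitters' processing notes name, all members are protein-coding genes of RefSeq. Myc (ENSMUSG00000022346) lies at chr15:61985341-61990361 and Mycn (ENSMUSG00000037169) at chr12:12936093-12941836. Max (ENSMUSG00000059436) lies at chr12:76937269-76962323. Of the repressors, Mxd1 (ENSMUSG00000001156) lies at chr6:86647044-86669234, Mxd3 (ENSMUSG00000021485) at chr13:55325170-55329900 and Mxd4 (ENSMUSG00000037235) at chr5:34176580-34187710. Mxi1 (ENSMUSG00000025025) lies at chr19:53310128-53373293 and Mnt (ENSMUSG00000000282) at chr11:74830806-74845725. Mga (ENSMUSG00000033943) lies at chr2:119872503-119970129. The Mxd3 gene shares 103 bases with Prelid1, which had 316 and 734 UMIs in the retained cells, and the counting strand is not given in the sources used here, so a part of the Mxd3 reads is uncertain. The same holds for Mxi1, which shares 16740 bases with the long non-coding RNA gene Gm30541, for Mxd1, which shares 9111 with Gm38850, and for Mga, which shares 638 with the pseudogene Gm13998.

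The activators and Max made up most of the family's RNA in the retained cells, and their levels were close in both libraries. Levels are summed UMIs of all retained cells of a library, which come from the 3′ end and do not grow with transcript length. Mycn, which encodes N-MYC, had 413 UMIs in Id2+/+ cells (194 CPM, interval 175 to 213) and 979 in Id2Δ/Δ cells (209 CPM, 196 to 222). Myc, which encodes c-MYC, had 297 UMIs (139 CPM, 124 to 156) and 636 UMIs (136 CPM, 125 to 147). In both libraries the Mycn interval lay wholly above that of Myc. Max, the shared partner, had 241 UMIs (113 CPM, 99.1 to 128) and 476 UMIs (102 CPM, 92.7 to 111). Max lay below Myc in both libraries, with intervals that overlapped in Id2+/+ and did not in Id2Δ/Δ.

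The repressors were lower and less evenly spread. Mxd4 led them with 114 UMIs (53.4 CPM, 44.1 to 64.2) in Id2+/+ and 189 UMIs (40.3 CPM, 34.8 to 46.5) in Id2Δ/Δ cells. Mga stood at the same height, with 107 UMIs (50.2 CPM, 41.1 to 60.6) and 191 UMIs (40.8 CPM, 35.2 to 47.0). Mxi1 had 63 UMIs (29.5 CPM, 22.7 to 37.8) and 79 UMIs (16.9 CPM, 13.3 to 21.0). Mnt, a broadly expressed antagonist of MYC, had 36 UMIs (16.9 CPM, 11.8 to 23.4) and 44 UMIs (9.39 CPM, 6.82 to 12.6). The lowest levels were those of Mxd1, with 22 and 34 UMIs (10.3 and 7.26 CPM), and of Mxd3, with 12 and 48 UMIs (5.62 and 10.2 CPM). Intervals of Mxd1 and Mxd3 overlapped in each library, so their order is not set by these counts.

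Between genotypes, 2 repressors were lower in the Id2Δ/Δ library and no member was higher. A gene was called when its ratio passed 1.5-fold with a counting interval that excluded 1, with 20 or more UMIs summed over the libraries as the minimum. Of all 10458 genes tested, 8.25% were called lower and 1.72% were called higher, against 2 of 9 and 0 of 9 members. Mxi1 stood at 0.571 times its Id2+/+ level (0.405 to 0.808) and Mnt at 0.556 times (0.35 to 0.890). In HSC-like clusters alone both calls ended, with Mxi1 at 0.442 (0.136 to 1.12, 38 and 5 UMIs) and Mnt at 0.695 (0.236 to 1.70, 29 and 6 UMIs). Myc passed the limits as lower there instead, at 0.567 (0.356 to 0.871). Those 172 Id2+/+ and 44 Id2Δ/Δ cells lay mostly in different clusters, and Myc was among the clustered genes. Mxd4 had a ratio of 0.755 (0.595 to 0.961), which excluded 1 without passing 1.5-fold. The activators and their partner were near 1, with ratios of 0.975 for Myc (0.848 to 1.12), 1.08 for Mycn (0.961 to 1.21) and 0.899 for Max (0.769 to 1.05). Mga had a ratio of 0.813 (0.638 to 1.04) and Mxd1 one of 0.704 (0.400 to 1.26). Mxd3 had the highest ratio, 1.82, with an interval from 0.953 to 3.77 that its 60 UMIs leave wide.

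**Figure D1:**
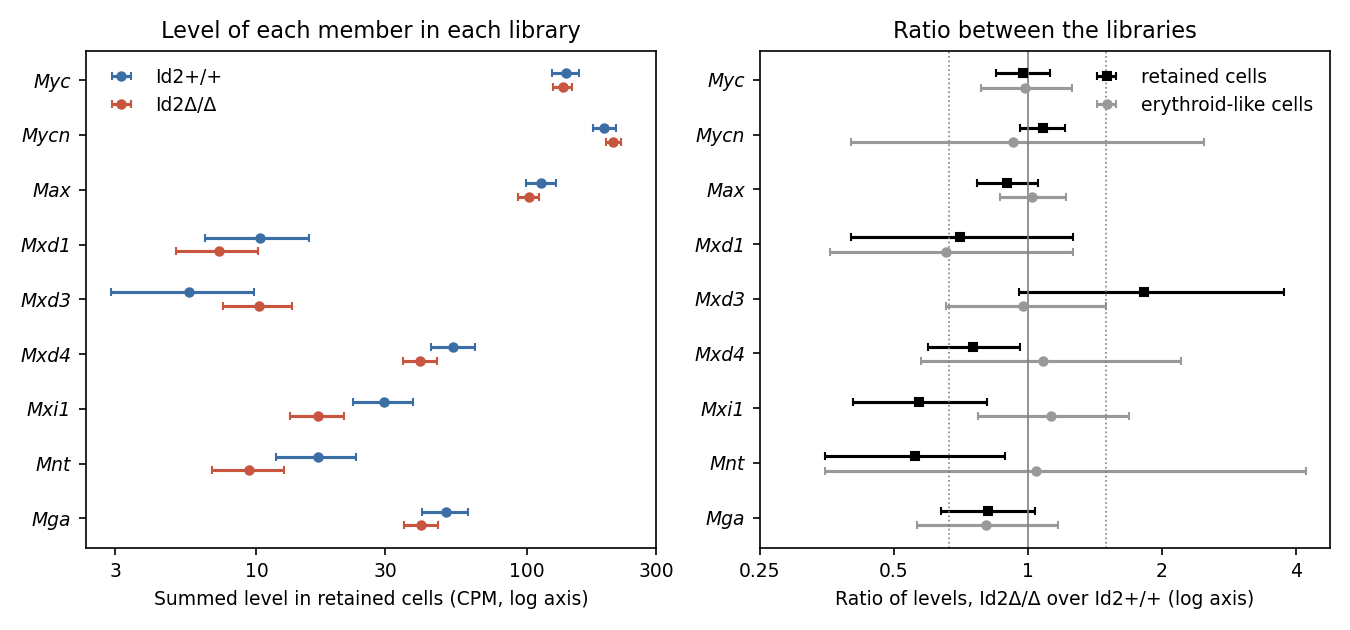
Left, summed level of each member in CPM (log axis) in the retained cells of each library, with exact Poisson intervals. Right, ratio of the levels, Id2Δ/Δ over Id2+/+ (log axis), in retained and in erythroid-like cells, with exact conditional intervals and dotted lines at 1.5-fold. Mxi1 and Mnt are the members past 1.5-fold with intervals below 1 in retained cells, and in erythroid-like cells every interval includes 1.

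In all, 7 of 9 ratios lay below 1, beside 58.1% of all genes tested, and the median log2 ratio was −0.30 over members and −0.08 over all genes. Scaling by trimmed means (TMM) would raise every log2 ratio by 0.11, which carries the Myc ratio across 1. Together, Myc and Mycn gave 74.2% (71.3 to 76.9) of the 957 UMIs of the MAX-binding activators and the 5 repressors in Id2+/+ cells. In Id2Δ/Δ cells they gave 80.4% (78.6 to 82.1) of 2009 UMIs, and these intervals did not overlap. They did overlap in HSC-like clusters alone, at 71.1% (67.0 to 74.9) and 78.8% (71.6 to 84.8), and in cells that had Y-linked UMIs but lacked Xist, at 73.2% (67.9 to 78.0) and 77.9% (73.6 to 81.9), but not in cells that had Xist and lacked Y-linked UMIs, at 74.2% (69.1 to 78.9) and 81.5% (79.2 to 83.7). Of 6 clusters found with genes scaled within each library, 5 had the higher share in Id2Δ/Δ cells. Among them only the cluster led by Ccnb2 and Cenpa had intervals apart, at 59.7% (47.0 to 71.5) and 85.1% (78.9 to 90). In the cluster led by Pf4 and cell division genes the share was 82.8% (75.8 to 88.4) in Id2+/+ and 77.8% (73.3 to 81.9) in Id2Δ/Δ cells. The share of Mycn within Myc plus Mycn was 58.2% (54.4 to 61.8) and 60.6% (58.2 to 63.0), with overlapping intervals.

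Other measures also differed between the libraries, and their part in these ratios was not tested. One was the lowest depth of a called cell, because that limit was set within each library. Among 14 tested genes of a list for stress during tissue dissociation, all 14 lay lower in Id2Δ/Δ cells, 12 of them called, with a median log2 ratio of −1.64. The 18 genes of that list summed to 1885 CPM in Id2+/+ and 736 CPM in Id2Δ/Δ retained cells. Summed S-phase genes stood at 2736 and 3325 CPM and summed G2/M genes at 2793 and 3601 CPM. Sex differed too: 84 Id2+/+ cells and 231 Id2Δ/Δ cells had Xist UMIs and no Y-linked UMI, and 93 and 90 cells had the opposite. Within cells with Xist, Mycn had a ratio of 1.39 (1.14 to 1.69), and within cells with Y-linked UMIs it had one of 1.02 (0.819 to 1.27). Mxi1 had ratios of 0.609 (0.358 to 1.06) and 0.537 (0.279 to 1.02) in the same sets, and Mnt 0.744 (0.345 to 1.74) and 0.353 (0.109 to 1.02). Both repressors thus stayed below 1 in each set, with intervals that included 1.

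Counted by cells, N-Myc RNA was seen in more of the retained cells than c-Myc RNA. Each cell was thinned to 5800 UMIs, which left out 66 shallower Id2+/+ cells and no Id2Δ/Δ cell. The UMI limit for calling a cell was set within each library, so the lowest depth differed. Mycn was found in 57.1% (49.9 to 64.2) of 196 Id2+/+ cells and 58.4% (53.5 to 63.2) of 416 Id2Δ/Δ cells. The shares for Myc were 44.4% (37.3 to 51.6) and 47.4% (42.5 to 52.3), so both activators were at like shares in the 2 libraries. Without thinning, Mycn was in 63.0% and 74.5% of cells and Myc in 131 of 262 and 266 of 416 cells, the deeper library being the higher. Max was found in 52.0% (44.8 to 59.2) and 43.8% (38.9 to 48.7) of thinned cells. That Id2+/+ value lay near the top of 20 thinning draws, which ran from 44.4% to 52.6%, while the Id2Δ/Δ draws ran from 39.4% to 47.1%. Mxd4 was found in 26.5% and 22.1%, Mga in 27.0% and 20.7%, Mxi1 in 14.3% and 8.65%, Mnt in 9.18% and 6.49% and Mxd1 in 6.63% and 4.81% of thinned cells. Mxd3 was found in 1.53% and 4.57%, but over the 20 draws its share ran from 1.53% to 4.08% in Id2+/+ and from 2.16% to 4.81% in Id2Δ/Δ cells, so the draws of the libraries overlapped.

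Most cells held few molecules of any member. The highest count in 1 cell was 15 for Mycn and 10 for Myc in Id2+/+ cells, and 14 and 9 in Id2Δ/Δ cells. No cell gave more than 3.63% of the UMIs of Myc, Mycn or Max in either library. The 12 Mxd3 UMIs of the Id2+/+ library came from 10 cells, and 1 cell gave 16.7% of them. Of thinned cells with Myc, 59.8% in Id2+/+ and 62.9% in Id2Δ/Δ also had Mycn, and of cells without Myc, 55.0% and 54.3% had it. The intervals of those pairs overlapped in each library.

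The most marked pattern in the family was the gap in Mycn between the retained cells and other marrow cells that had come through the same sort. Erythroid-like cells, 35 in Id2+/+ and 156 in Id2Δ/Δ, carried red cell markers and had medians of 37549 and 40038.5 UMIs. In them Mycn had only 7 UMIs (5.31 CPM, 2.13 to 10.9) and 31 UMIs (4.91 CPM, 3.34 to 6.97). Its level was 36.5-fold lower (17.5 to 91.3) in Id2+/+ and 42.5-fold lower (29.8 to 63.0) in Id2Δ/Δ erythroid-like cells than in retained cells of the same library. Without thinning, 5 of 35 (14.3%, 4.81 to 30.3) and 31 of 156 (19.9%, 13.9 to 27.0) erythroid-like cells had a Mycn UMI. Over 20 draws of thinning to 5800 UMIs the share ran from 0% to 5.88% in Id2+/+ and from 1.28% to 5.13% in Id2Δ/Δ cells. The droplets without a cell held Mycn at 61.7 and 38.0 CPM, above the erythroid-like level.

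Myc was less far below its level in the retained cells. It had 89 UMIs (67.5 CPM, 54.2 to 83.0) and 420 UMIs (66.5 CPM, 60.3 to 73.2) in erythroid-like cells, 2.06-fold (1.62 to 2.64) and 2.04-fold (1.80 to 2.31) below the retained cells. Max had 164 UMIs (124 CPM, 106 to 145) and 803 UMIs (127 CPM, 119 to 136), with ratios of 1.10 (0.897 to 1.35) and 1.25 (1.12 to 1.41) over retained cells. Mycn made up 7.29% (2.98 to 14.4) and 6.87% (4.72 to 9.61) of Myc plus Mycn in these cells.

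Among the repressors, Mxd4 and Mnt were lower and Mxd3 was higher in erythroid-like cells of both libraries. Mxd4 had 12 UMIs (9.10 CPM) and 62 UMIs (9.82 CPM), 5.87-fold (3.23 to 11.7) and 4.11-fold (3.07 to 5.56) below retained cells. Mnt had 4 UMIs (3.03 CPM) and 20 UMIs (3.17 CPM), 5.56-fold (1.99 to 21.5) and 2.96-fold (1.71 to 5.31) below. Mxd3, the MXD protein known from dividing cells, had 30 UMIs (22.7 CPM, 15.3 to 32.5) and 140 UMIs (22.2 CPM, 18.7 to 26.2). Its ratios over retained cells were 4.04 (2.01 to 8.67) and 2.17 (1.55 to 3.07). Cell-cycle RNA was also higher in these cells, with summed G2/M genes at 9764 and 11314 CPM against 2793 and 3601 CPM in retained cells and summed S-phase genes at 6323 and 6485 CPM against 2736 and 3325 CPM, and its part in the levels of Mxd3 and Mxd4 was not tested. Mxi1 had erythroid-like levels of 25 and 28.2 CPM, with ratios of 0.847 (0.539 to 1.31) in Id2+/+ and 1.67 (1.28 to 2.21) in Id2Δ/Δ, whose intervals overlapped. Mga had ratios of 0.605 (0.410 to 0.877) and 0.599 (0.481 to 0.744), and Mxd1 had ratios of 1.10 (0.532 to 2.22) and 1.03 (0.646 to 1.65).

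With 2-fold as the limit between cell kinds, 4 of 9 members (Myc, Mycn, Mxd4 and Mnt) were lower and 1 (Mxd3) was higher in erythroid-like cells of each library. Over all genes tested, 27.6% in Id2+/+ and 30.2% in Id2Δ/Δ were lower and 9.49% and 9.31% were higher. The activators' share of the network UMIs was 50.5% (43.2 to 57.8) and 50.2% (46.9 to 53.5) in erythroid-like cells, below the retained cells of both libraries. Between genotypes, none of the 9 members was called in erythroid-like cells, where 6.09% of genes were called lower and 1.49% higher. Mxi1 had a ratio of 1.13 and Mnt one of 1.04 there.

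**Figure D2:**
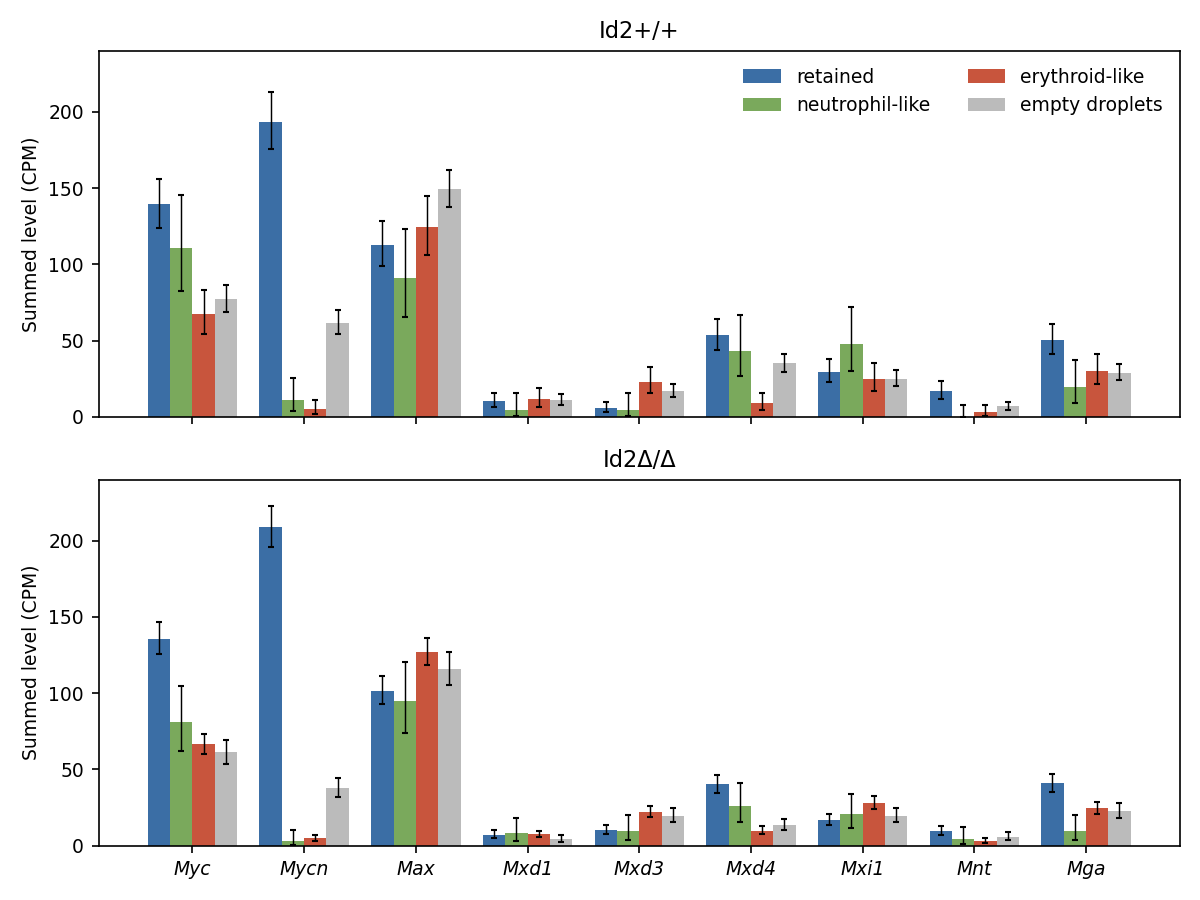
Summed level of each member in CPM in retained, neutrophil-like and erythroid-like cells and in droplets without a cell, for Id2+/+ (top) and Id2Δ/Δ (bottom), with exact Poisson intervals. Mycn is at 194 and 209 CPM in retained cells and at most 10.8 CPM in neutrophil-like and erythroid-like cells, whereas Max lies between 90.9 and 127 CPM in these 3 kinds of cell.

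The erythroid-like cells of the libraries lay partly in different clusters. A cluster of 27 cells was all Id2+/+ and one of 76 cells was all Id2Δ/Δ, and both had Car1, a carbonic anhydrase of early red cells, among their 10 leading genes. In those 76 Id2Δ/Δ cells Myc stood at 78.6 CPM (69.0 to 89.1) and Mycn at 5.79 CPM (3.43 to 9.16). Mxd3 stood at 12.9 CPM (9.20 to 17.5) there, below its level in all erythroid-like Id2Δ/Δ cells, and its ratio over retained cells was 1.26 (0.805 to 1.95), with an interval that included 1. The call of Mxd3 as higher in Id2Δ/Δ erythroid-like cells was thus not met in those 76 cells alone. Nor was the 2-fold limit met for Myc, which lay 1.73-fold (1.49 to 2.01) below retained cells there and 1.81-fold (1.42 to 2.35) below them in the 27 Id2+/+ cells. Myc and Mycn gave 59.1% (54.4 to 63.8) of the network UMIs in the 76 Id2Δ/Δ cells and 56.8% (48.6 to 64.7) in the 27 Id2+/+ cells.

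Neutrophil-like cells, 27 in Id2+/+ and 40 in Id2Δ/Δ, also had little Mycn. Its 5 UMIs (10.8 CPM, 3.52 to 25.3) and 2 UMIs (2.75 CPM, 0.333 to 9.95) put it 17.9-fold (7.60 to 55.4) and 75.9-fold (21.0 to 628) below the retained cells. Myc had 51 UMIs (110 CPM, 82.2 to 145) and 59 UMIs (81.2 CPM, 61.8 to 105), at 0.793 (0.577 to 1.07) and 0.598 (0.450 to 0.782) times its retained level. Mga was lower, with 9 UMIs (19.5 CPM) and 7 UMIs (9.64 CPM), 2.57-fold (1.31 to 5.78) and 4.23-fold (2.01 to 10.7) below. Mnt had 0 and 3 UMIs, Max 42 and 69 (90.9 and 95 CPM), Mxd4 20 and 19 (43.3 and 26.2 CPM) and Mxi1 22 and 15 (47.6 and 20.6 CPM). By the 2-fold limit 3 of 8 members tested (Mycn, Mnt and Mga) were lower in Id2+/+ and 2 of 9 (Mycn and Mga) in Id2Δ/Δ, and none was higher. Of all genes tested 22.2% and 24.3% were lower and 4.96% and 5.17% were higher. Haemoglobin-rich cells (9 and 13) had at most 3 UMIs of any member.

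Within the retained cells, Mxd4 was lowest and Mxd3 highest in both libraries where mitotic and platelet genes led, and Mycn stood higher in HSC-like cells than there. Clustering placed most cells of the 2 libraries apart, so genes were also scaled within each library before clustering, which gave 6 clusters with cells of both. Myc, Mycn and Mxd4 were among the clustered genes, so their levels by cluster are a description. In the HSC-like cluster, led by Meg3, Sult1a1 and Procr (86 and 120 cells), Mycn stood at 288 CPM (Id2+/+) and 301 CPM (Id2Δ/Δ) and Myc at 93.3 and 114 CPM. A cluster of 29 and 49 cells was named platelet-biased by 5 markers. Its leading genes included Gata1, Treml1 and the red cell gene Car1, and only Treml1 among them was a listed platelet marker. There Myc reached 214 and 197 CPM, its highest level in both libraries. The remaining platelet-biased cluster, led by Pf4 and by cell division genes such as Aurkb and Top2a (32 and 65 cells), had Mycn at 143 and 129 CPM and Mxd4 at 15.7 and 12.2 CPM, the lowest level of Mxd4 in both. Mxd3 had 6 of its 12 Id2+/+ UMIs and 36 of its 48 Id2Δ/Δ UMIs in those cells (13.4 and 27.5 CPM), and lay between 1.94 and 6.5 CPM in every other cluster.

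Between genotypes, the ratio of Mycn varied by cluster. It was 1.64 (1.21 to 2.24) in an unnamed cluster led by Flt3, Sox4 and Cd34, with 63 and 150 UMIs, and 2.09 (1.33 to 3.45) in a cluster led by the G2/M genes Ccnb2 and Cenpa, with 23 and 107 UMIs. In the HSC-like cluster it was 1.05 (0.855 to 1.28), and in the other 3 clusters it lay between 0.779 and 1.08 with intervals that included 1. Myc had a ratio of 0.683 (0.498 to 0.944) in the Pf4-led cluster and intervals that included 1 in the other 5. Mxi1 was below 1 in all 6 clusters, from 0.286 (0.0853 to 0.867) to 0.924 (0.315 to 3.28), but 5 of the 6 intervals included 1 and the lowest ratio rested on 10 and 6 UMIs. Mnt was below 1 in 4, with 0.427 (0.182 to 0.977) in the HSC-like cluster, and above 1 in both platelet-biased clusters.

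**Figure D3:**
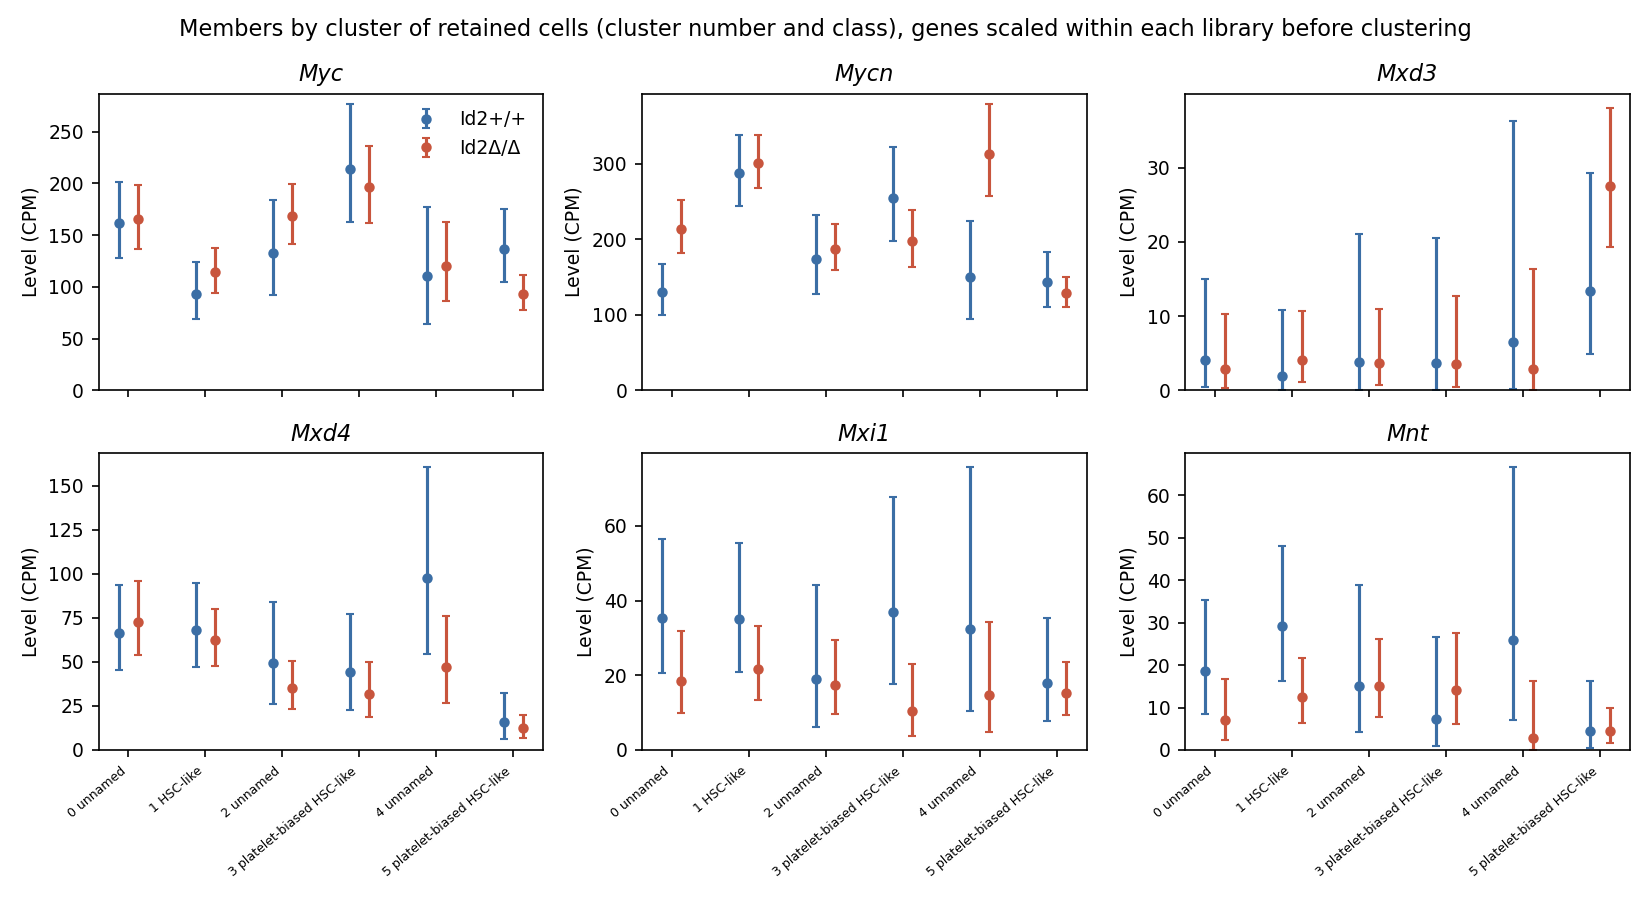
Level in CPM of 6 members in each cluster of retained cells (horizontal axis, cluster number and class, unnamed also where S or G2/M genes outnumber class markers among the 10 leading genes), with genes scaled within each library before clustering; points are libraries and bars are exact Poisson intervals. Mycn peaks in the HSC-like cluster of Id2+/+ cells and in the HSC-like and Ccnb2-led (number 4) clusters of Id2Δ/Δ cells, and Mxd3 is highest in the last cluster, led by Pf4 and mitotic genes.

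Without scaling, the HSC-like cells of the libraries fell into different clusters, 167 of 172 Id2+/+ cells in 1 led by Meg3 and Fos and all 44 Id2Δ/Δ cells in 1 led by Sult1a1 and Procr. Compared across those clusters, the ratio was 1.46 (1.14 to 1.85) for Mycn and 0.567 (0.356 to 0.871) for Myc. In the HSC-like cluster of the scaled data the Myc ratio lay on the other side of 1, at 1.22, with an interval from 0.863 to 1.75 that included 1. The direction of Myc in HSC-like cells thus depended on the clustering.

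Ranked by the share of their UMIs from 67 S and G2/M genes, cells with the most cell-cycle RNA had less Mycn and Mxd4. The lowest and highest tertiles held 88 and 87 Id2+/+ cells, with medians of 6032.5 and 10200 UMIs, and 139 Id2Δ/Δ cells each, with medians of 7750 and 13265 UMIs. These are ranges of a score and not cell types, and 79 and 88 cells lay within 10% of a limit between tertiles. Mycn stood at 286 CPM (256 to 319) in the lowest and 167 CPM (150 to 185) in the highest Id2Δ/Δ tertile, with 0.583 (0.50 to 0.681) as their ratio. In the lowest Id2+/+ tertile it stood at 242 CPM (203 to 286) and in the highest at 174 CPM (149 to 202), with 0.719 (0.569 to 0.909) as the ratio. Mxd4, which is known from cells that stop dividing, stood at 67.9 and 22.0 CPM in the lowest and highest Id2Δ/Δ tertiles (ratio 0.324, 0.22 to 0.472) and at 68.6 and 37.2 CPM in those of Id2+/+ (0.543, 0.335 to 0.880). The direction of both was the same in each library.

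Mxd3 lay the other way, with 2 UMIs (1.76 CPM) in the lowest and 39 UMIs (18.6 CPM) in the highest Id2Δ/Δ tertile and a ratio of 10.6 (2.73 to 90.3). With cells ranked on S-phase genes alone its ratio was 3.14 (1.07 to 12.6), and split at the median of both gene sets it was 5.33 (2.12 to 17.2). In Id2+/+ cells it had 1 and 9 UMIs, too few for a call. The intervals of Max included 1, with ratios of 1.04 (0.753 to 1.44) and 1.06 (0.840 to 1.35). Myc had a ratio of 1.40 (1.02 to 1.94) in Id2+/+ and 0.872 (0.713 to 1.07) in Id2Δ/Δ cells. When cells were ranked on S-phase genes alone these ratios were 1.80 (1.30 to 2.53) and 1.13 (0.921 to 1.40), and on G2/M genes alone 0.90 (0.657 to 1.24) and 0.748 (0.615 to 0.911). At 1.5-fold, 1 of 9 members tested was higher (Mxd3) and 2 were lower (Mycn and Mxd4) in Id2Δ/Δ cells, beside 11.7% and 13.9% of genes. In Id2+/+ cells 0 of 6 was higher and 1 (Mxd4) was lower, beside 9.69% and 9.2% of genes. These calls depended on the ranking. With G2/M genes alone, Mycn in Id2Δ/Δ cells stood at 0.671 (0.574 to 0.783), under 1.5-fold. Mxd4 in Id2+/+ cells lost its call on G2/M genes alone (0.637, with an interval that included 1) and when split at the median (0.679, under 1.5-fold). Other members passed only under another ranking. On G2/M genes alone, Mxd1 (0.321, 0.118 to 0.807, with 15 and 8 UMIs) and Mnt (0.412, 0.187 to 0.879, with 19 and 13 UMIs) passed as lower in Id2Δ/Δ cells, and Mxd1 also passed when split at the median (0.434, 0.203 to 0.903). On S-phase genes alone, the Myc ratio of 1.80 in Id2+/+ cells passed as higher.

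**Figure D4:**
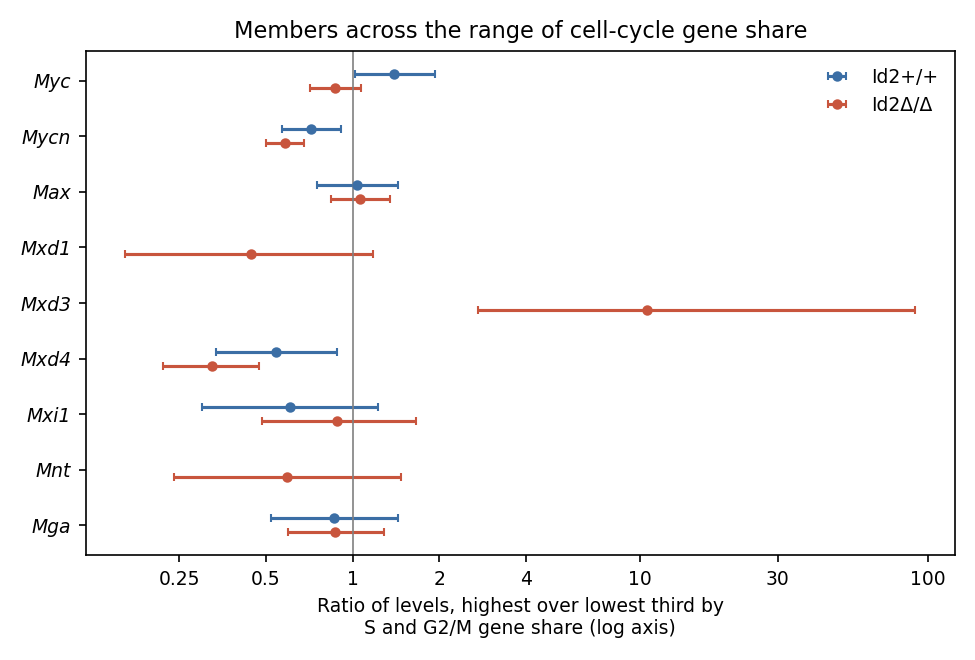
Ratio of each member's level in the highest over the lowest tertile of cells by S and G2/M gene share (log axis), for each library, with exact conditional intervals; members under 20 UMIs in a library are not drawn. Mycn and Mxd4 lie below 1 in both libraries, and Mxd3 in Id2Δ/Δ cells lies at 10.6.

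Of the genes that work with the family, 1 outside the stress list was called lower between genotypes and 0 higher, where 8.25% and 1.72% of all genes tested were, and MYC targets lay slightly higher in Id2Δ/Δ cells. Of the MLX arm of the network and the MYC-binding proteins, 4 of 6 listed genes could be tested and none was called, with Mlxip at 0.737 (0.416 to 1.34) and Mycbp at 1.13 (0.887 to 1.45). Of the 8 corepressors that MXD proteins recruit, none was called, with the scaffold Sin3a at 0.854 (0.625 to 1.18) and Sin3b at 1.18 (1.02 to 1.36). None of the 12 coactivators of MYC was called, among them the scaffold Trrap at 0.737 (0.521 to 1.05) and the acetyltransferase Kat2a at 1.2 (0.964 to 1.5). Among 10 tested genes that set the stability of MYC none was called, the ubiquitin ligase subunit Skp2 being the highest at 1.41 (0.947 to 2.14) and the deubiquitinase Usp36 the lowest at 0.754 (0.538 to 1.06). Of the 11 partners of MGA in the variant Polycomb complex none was called, with Pcgf6 at 1.48 (1.03 to 2.15) and Tfdp1 at 0.592 (0.318 to 1.12). The median log2 ratios of these lists ran from −0.12 to 0.10, beside −0.08 over all genes.

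Of 39 MYC target genes tested, 35 lay above a log2 ratio of 0 and 4 lay below, where 41.0% of all genes tested lay above. Their median log2 ratio was 0.23, and none was called higher. Ran, a GTPase of nuclear transport, went from 952 to 1317 CPM (ratio 1.38, 1.32 to 1.45) and Nme1, a nucleoside diphosphate kinase, from 379 to 544 CPM (1.43, 1.32 to 1.55). Nme2 was called lower at 0.417 (0.223 to 0.777), with 24 and 22 UMIs. It is a near-identical neighbour of Nme1, so reads of the pair may be split in an uncertain way. For Polr1b, a subunit of RNA polymerase I, the ratio was 0.775 (0.534 to 1.14). In HSC-like clusters alone the median of the targets was −0.20, so the direction depended on which retained cells were used. That subset set 172 Id2+/+ cells against 44 Id2Δ/Δ cells, mostly from different clusters. The same 39 targets lay above the retained cells in erythroid-like cells for 32 genes in Id2+/+ (median log2 ratio 0.36, beside −0.27 over all genes) and 36 genes in Id2Δ/Δ (0.30, beside −0.30), the cells in which Myc and Mycn were lower.

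**Figure D5:**
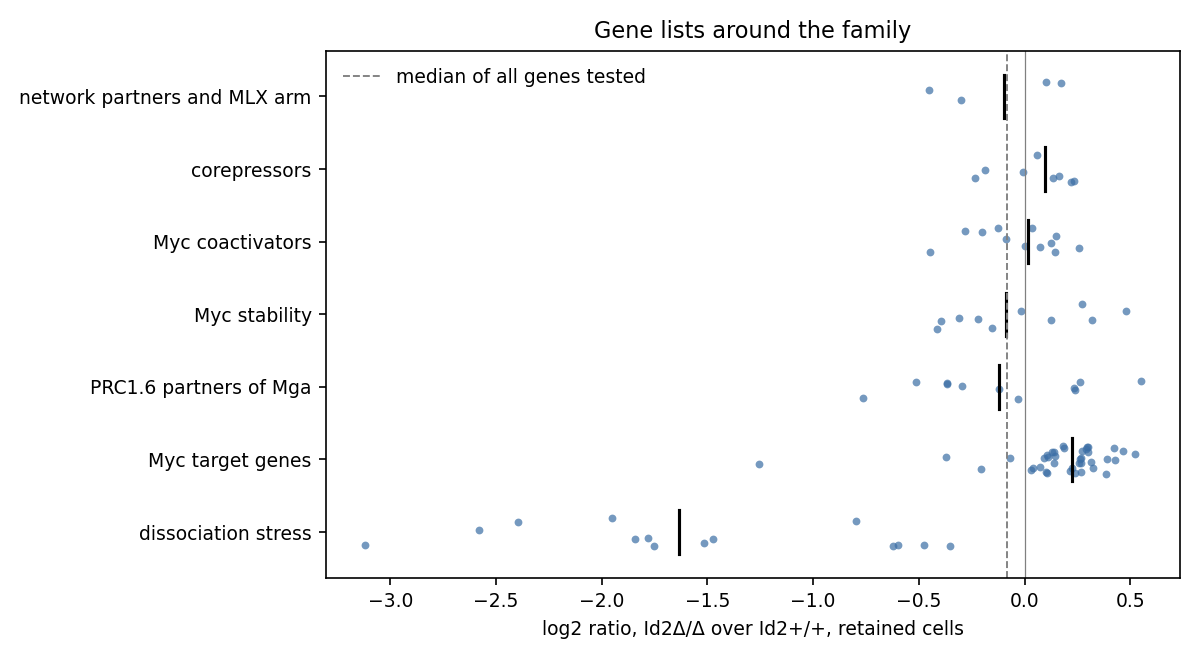
The log2 ratio, Id2Δ/Δ over Id2+/+, of each tested gene of 7 lists in retained cells; points are genes, short black lines are list medians and the dashed line is the median of all genes tested. Points of the MYC target list lie mostly right of 0 (median 0.23), and all points of the stress list lie left of it (median −1.64).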

How the data were processed

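The authors deposited raw UMI counts per gene and barcode, 1 matrix per library, with no cell call. The submitters' processing notes name Cell Ranger 2.2.0 and mm10. The members, gene lists and thresholds were chosen with earlier results of these data known. Within each library, barcodes with at least 10% of the 99th percentile of its 1000 deepest barcodes were called cells. Those at or above 10% mitochondrial UMIs were dropped. Cells were clustered with scanpy 1.11.5 (2000 variable genes, 20 components, 15 neighbours, Leiden resolution 1). Clusters with at least 4 markers of another type past a log2 fold of 1 were set apart by kind, and retained cells were clustered again at resolution 0.8. No doublet caller was run. Droplets of 1 to 100 UMIs stood for free RNA.

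Counts were summed per library and cell kind and given as CPM. Intervals for counting error were exact Poisson, exact conditional (ratios) and Clopper-Pearson (shares), at 95%. PCR duplicates were removed by UMIs. The genotype ratio and its counting interval were tested on simulated Poisson counts with known changes, without spread between cells or libraries. Thinning was tested on simulated counts too, and the other steps were not. With 1 library per group no count model was fitted, and edgeR 4.0.16 gave only the TMM factors. List ratios had 0.5 added to each count. Genes named from a list are the 2 highest and 2 lowest ratios, or some of these, beside the members. Alternatives covered the cell call, filters, scaling, free RNA, thinning, clustering, sex and cell-cycle ranking. Alternatives with erythroid-like cells or clusters scaled within a library were chosen after seeing the data. Values for some genes are not reported here.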

Additional observations from a re-analysis of the deposited data

How the results depend on the processing

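No paired analysis was possible because the 2 libraries, 1 a genotype, form no pairs. With HSC-like clusters alone the Myc ratio was 0.567 and the Mycn ratio 1.46, the Myc target median −0.20, the Id2+/+ network share 71.1% and the members past 1.5-fold 1 (Myc) in place of 2, with the calls of Mxi1 and Mnt lost. With all called cells the Mycn ratio was 0.804 and the network shares were 68.9% and 70.4%. In cells with Xist the Mycn ratio was 1.39 and 0 members were called. In cells with Y-linked UMIs the Myc ratio was 0.832, the Id2Δ/Δ network share 77.9% and the members called 0. In erythroid-like cells, an alternative chosen after seeing the data, Mxi1 (1.13) and Mnt (1.04) turned above 1, Mxd4 was 1.08, Mycn 0.925 and the members called 0. TMM, which raises every log2 ratio alike, put the Myc target median at 0.33 and that of all genes at 0.02. Requiring 2 UMIs gave, in Id2+/+ and Id2Δ/Δ cells, 22.4% and 21.4% for Myc, 31.6% and 30.8% for Mycn, 13.3% and 11.5% for Max and 4.59% and 5.05% for Mxd4. Without thinning Max was at 60.3% and 63.0%, and in Id2Δ/Δ Myc was at 63.9%, Mycn at 74.5% and Mxd4 at 34.6%. The lowest draw for Max in Id2+/+ was 44.4%. The shares with 2 UMIs or without thinning count cells by another rule, and TMM is a change of scale. The cause of the other shifts was not tested. Of the other recomputed main values, 140 stayed within their limit, which was the counting interval, 0.1 in log2 for a list median or 1.5 times for a count of members.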

Other observations

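Over 16 profiles (cell kinds and clusters of each library with at least 50000 UMIs), the genes whose log2 level ran most like that of a member were sought among the 5310 genes that averaged 20 CPM or more. The profiles of a library share its depth and free RNA, so the correlations are descriptions. They include the haemoglobin-rich cells, 87.8% of whose UMIs were haemoglobin and where Max stood at 12.3 and 17.9 CPM. How far those profiles carry the correlations was not tested. For Mycn, high values of Pearson's r were those of Tmem176a (0.974) and AW112010 (0.969). Myc ran most like Nr2c2ap (0.946), Taf15 (0.942) and Fdx1 (0.940), and r between Myc and Mycn was 0.65. Max ran most like the translation genes Eif5b (0.989), Rpl7a (0.987) and Rps2 (0.986). Mxd4 was nearest to Trim12c (0.966), Btg1 (0.963), an antiproliferative gene, and Rilpl2 (0.945). Mxi1 was nearest to BC037034 (0.881), and Mga to Arglu1 (0.952).

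Max was found in 43.8% of thinned Id2+/+ cells with Mycn (34.4 to 53.4) and in 63.1% of those without it (51.9 to 73.4), whereas in Id2Δ/Δ cells the shares were 45.7% (39.3 to 52.2) and 41.0% (33.6 to 48.8). The Id2+/+ pair rests on a single thinning draw. Mycl, the remaining MYC gene, had no UMI in the retained cells of either library.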
